A study of Homo sapiens with 6 samples.

Results

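Chromatin accessibility was examined over 4 long human genes that are best known from neurons, AUTS2, MYT1L, OPCML and PTPRN2, in a liver cancer cell line treated with an inhibitor of the menin-MLL1 interaction. The genes were chosen because each lies at or next to a site among the strongest that had a peak in every treated library and in no control library, so those 4 leading sites and the contrast behind them are descriptions and were not tested. Each locus was taken as the GENCODE gene body plus 200 kb on either side in hg38. Of 166021 accessible sites in the 6 libraries, 305 (0.184%) lay in the 4 loci, and all 305 are accounted for.

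The assay was ATAC-seq, in which the Tn5 transposase inserts adapters into open DNA, and peaks are called where such fragments pile up. HLF cells, an established human liver cancer line grown as 1 line in culture, received DMSO as the vehicle or 5 μM SNDX-5613, which blocks the binding of menin to MLL1. Each group held 3 libraries, all labelled with the same batch. The study's methods state in general that a replicate was 1 dish divided between the treated and the untreated group. The labels give 24 h of treatment for both groups while the study's methods describe a longer one, so the duration is uncertain.

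Menin is a scaffold that brings the histone methyltransferase MLL1 to chromatin, where MLL1 methylates lysine 4 of histone H3, a mark of active gene starts. AUTS2 encodes a nuclear regulator of brain development that joins Polycomb group complexes, and MYT1L a zinc finger factor that keeps non-neuronal genes off in neurons. OPCML is a cell adhesion molecule of the IgLON family, anchored in the membrane and known to be silenced in several cancers. PTPRN2 is a phosphatase-like protein of dense-core secretory vesicles in neuroendocrine cells.

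The DNA under the 4 leading sites is given because the presence of a peak there is what singled the genes out. Each sequence is the hg38 plus strand over 201 bases in lower case, centred on the summit with the highest rank percentile within its library, which is from SNDX-5613 replicate 3 for PTPRN2 and from replicate 1 for the other 3, with capitals at motif matches. Both strands were searched for 4 motifs: the CCAAT box of NF-Y, the AP-1 type motif TGANTCA, the TEAD type motif CATTCC and the GATA type motif AGATAA.
AUTS2 leading site, chr7:70925473-70925673: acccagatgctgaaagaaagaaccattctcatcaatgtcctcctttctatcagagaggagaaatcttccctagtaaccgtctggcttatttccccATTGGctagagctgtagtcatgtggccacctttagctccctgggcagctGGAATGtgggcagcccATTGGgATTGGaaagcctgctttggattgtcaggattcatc
MYT1L leading site, chr2:2057197-2057397: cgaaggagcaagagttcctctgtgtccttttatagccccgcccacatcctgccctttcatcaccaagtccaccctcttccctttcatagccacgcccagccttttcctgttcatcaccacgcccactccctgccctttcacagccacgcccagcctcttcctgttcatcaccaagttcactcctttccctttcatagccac
OPCML leading site, chr11:133576451-133576651: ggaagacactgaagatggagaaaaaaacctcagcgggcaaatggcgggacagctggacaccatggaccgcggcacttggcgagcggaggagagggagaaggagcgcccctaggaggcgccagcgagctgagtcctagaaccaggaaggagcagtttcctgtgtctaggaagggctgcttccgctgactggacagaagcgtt
PTPRN2 leading site, chr7:157690948-157691148: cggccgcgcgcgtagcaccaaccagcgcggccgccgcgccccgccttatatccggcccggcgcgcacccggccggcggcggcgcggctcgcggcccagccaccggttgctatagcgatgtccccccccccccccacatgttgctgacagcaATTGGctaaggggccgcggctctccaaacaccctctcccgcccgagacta

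The 4 sequences differed in composition. The AUTS2 window was 48.8% GC with 1 CpG and held 3 matches to CCAAT and 1 to CATTCC, all on the minus strand. The PTPRN2 window was 74.1% GC with 29 CpG and held 1 CCAAT, also on the minus strand. The MYT1L and OPCML windows, at 55.2% and 59.7% GC, held none of the 4 motifs. CCAAT occurred in 24.3% of all 166021 site windows, in 15.4% of the 305 locus windows, and in 23.7% of the 38 locus sites that had a peak in SNDX-5613 replicates 1 and 2 and in no DMSO library. TGANTCA occurred in 15.5% of all windows and in 9.84% of the locus windows, CATTCC in 15.5% and 13.1%, and AGATAA in 6.98% and 4.92%. A match describes letters and does not show that a factor was bound.

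The MYT1L window was built of a tandem repeat: shifted by 54 bases, it matched itself at 71.4% of positions. By the same measure, with at least 60% identity at any shift of 10 to 100 bases, 19 of the 305 locus windows (6.23%) were repeats, against 0.927% of all site windows. These were 15 of 160 windows at PTPRN2, 4 of 78 at MYT1L, and 0 at AUTS2 and OPCML. Repeat windows made up 12 of 167 sites (7.19%) found in SNDX-5613 libraries alone and 7 of 138 sites (5.07%) with a DMSO peak. How reads from repeats were placed was not stated, and its part in these peaks was not tested.

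Depth bears on every count here. The peak lists held 88026, 113675 and 96392 regions in DMSO replicates 1 to 3, and 107347, 96910 and 40568 in SNDX-5613 replicates 1 to 3. The background pileup of SNDX-5613 replicate 3 was 16.2% of the median of the other 5 libraries, and a pileup of 3 fragments was the lowest called there against 6 or 7 elsewhere. A peak missing from that library was therefore often not detectable at its depth, and results are given with and without it. The liver label was checked at promoters of 6 hepatocyte genes: 0 had a peak in all 6 libraries. ALB, APOA1 and HNF4A had none in any, while TTR and AFP had one in every library but SNDX-5613 replicate 3, and FOXA2 in 3 libraries. Of 6 neuronal genes used for comparison, 5 had a promoter peak in all 6 libraries, as did GAPDH and ACTB.

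The leading sites were 288 to 632 bp long, with rank percentiles from 46.1 to 79.1. A rank percentile here is the position of a peak within its own library's list by -log10 p, from 0 for the weakest to 100, and the pileup is the number of fragments over the summit. The AUTS2 leading site (chr7:70925462-70925761) was intergenic, 1327 kb downstream of the gene start. It had pileups of 27, 25 and 9 in SNDX-5613 replicates 1 to 3 and rank percentiles of 63.7, 56.5 and 60.2. The 3 summits lay within 17 bp of each other.

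The OPCML leading site (chr11:133576229-133576722) was the strongest of the 4, intergenic and 43975 bp upstream of the nearest OPCML start. Its pileups were 48, 52 and 9 and its percentiles 79.1, 78.5 and 52.2, with summits within 13 bp. Although no DMSO library had a peak there, the authors' DMSO consensus set also covers this site, whereas the other 3 leading sites were in the SNDX-5613 consensus set alone.

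The MYT1L leading site (chr2:2057068-2057699) lay in an intron, 274 kb from the gene start. Its pileups were 32, 23 and 7, its percentiles 67.7, 53.4 and 49.8, and its summits lay within 21 bp. The PTPRN2 leading site (chr7:157690957-157691244), also intronic and 897 kb from the start, was the weakest in the deeper libraries, with pileups of 17, 21 and 8 and percentiles of 46.1, 48.4 and 50.1. Its summits were spread over 93 bp. In SNDX-5613 replicate 3 the 4 sites rested on 7 to 9 fragments each.

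Whether these gains stood alone was asked from the rest of each locus. The AUTS2 locus (gene at chr7:69598296-70793506, plus strand, ENSG00000158321.19) held 21 sites, 1.32 per 100 kb. The MYT1L locus (chr2:1789113-2331664, minus strand, ENSG00000186487.21) held 78, and the OPCML locus (chr11:132414977-133532501, minus strand, ENSG00000183715.15) held 46. The PTPRN2 locus (chr7:157539056-158587823, minus strand, ENSG00000155093.20) held 160, 11.0 per 100 kb. The AUTS2 window reached no other protein-coding gene, while the MYT1L window reached PXDN, the OPCML window NTM, and the PTPRN2 window DNAJB6, NCAPG2 and ESYT2.

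The leading sites were the only gained sites of their loci, where gained means called in every treated library and in no control library. That makes 4 of 305 sites, against 0.147% of all sites, a count the choice of genes fixes. Lost sites, the reverse, numbered 0 of 305, against 1.18% of all sites. A lost site needs a peak in every DMSO library, and the loci were poor in sites called throughout. Sites with a peak in all 6 libraries made up 5.57% of the 305, against 20.1% of all sites. The shares of lost sites are not matched for this. Without the shallow SNDX-5613 replicate 3, 38 sites were gained, against 2.43% of all sites, and 0 lost, against 1.23%. Among the 40568 strongest regions of each library, the length of the shortest list, 10 of 53 locus sites were gained, against 0.806% of all sites, and 0 were lost, against 0.973%. Without DMSO replicate 2, 7 of 279 locus sites were gained, against 0.290%, and 4 were lost, against 1.92%. Lost sites numbered 2 of 292 without DMSO replicate 3, against 2.59%, and 4 of 242 without SNDX-5613 replicate 1, against 3.60%, so the absence of lost sites depended on these libraries.

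Most other sites were nevertheless found in treated libraries alone. Of the 305 sites, 167 (54.8%) had a peak in at least 1 SNDX-5613 library and in no DMSO library, against 19.7% of all sites, and 51 (16.7%) had peaks in DMSO libraries alone, against 23.8%. Without the 4 leading sites, this left 163 against 51. The SNDX-5613-alone share was 90.5% at AUTS2 (19 of 21), 69.2% at MYT1L (54 of 78), 50% at OPCML (23 of 46) and 44.4% at PTPRN2 (71 of 160). The DMSO-alone counts were 0, 5, 6 and 40 in the same order, so AUTS2 and PTPRN2 stood at opposite ends.

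These sites were mostly seen once. Of the 167, 127 had a peak in 1 library, 36 in 2 and 4 in 3. Of the 51 DMSO-alone sites, 45 were in 1 library and 6 in 2. Sites with a peak in 1 library thus made up 172 of the 305 (56.4%), against 36.2% of all sites. Only 30 of the 167 lay in the authors' SNDX-5613 consensus set, and 2 lay in the DMSO set. Sites with a peak in both deeper SNDX-5613 libraries and in no DMSO library numbered 38 (12.5%), against 2.39% of all sites: 5 at AUTS2, 14 at MYT1L, 5 at OPCML and 14 at PTPRN2. The opposite, called in every DMSO library and in neither deeper SNDX-5613 library, was found at 0 of 305 sites, against 1.21% of all sites. As with lost sites, this share is not matched for the scarcity of sites called throughout in the loci. Of SNDX-5613-alone sites, 38 of 167 in the loci and 3965 of 32770 in the whole series were in both deeper libraries.

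They were also weak. Outside the leading sites, the SNDX-5613-alone sites had pileups of 6 to 27 (median 9) in SNDX-5613 replicate 1 and of 7 to 29 (median 10) in replicate 2. Their median rank percentiles were 17.5 and 17.02. The leading sites were chosen for their strength and are no comparison for these. DMSO-alone sites were weak too, with median rank percentiles of 8.36, 8.63 and 12.7 in DMSO replicates 1 to 3. In SNDX-5613 replicate 3, 10 SNDX-5613-alone sites outside the leading ones were called, with pileups of 3 or 4. The strongest of them in the deeper libraries lay 1121 kb from the PTPRN2 start, beyond the end of the gene and near the start of a long noncoding RNA gene, with pileups of 27 and 29.

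**Figure D1:**
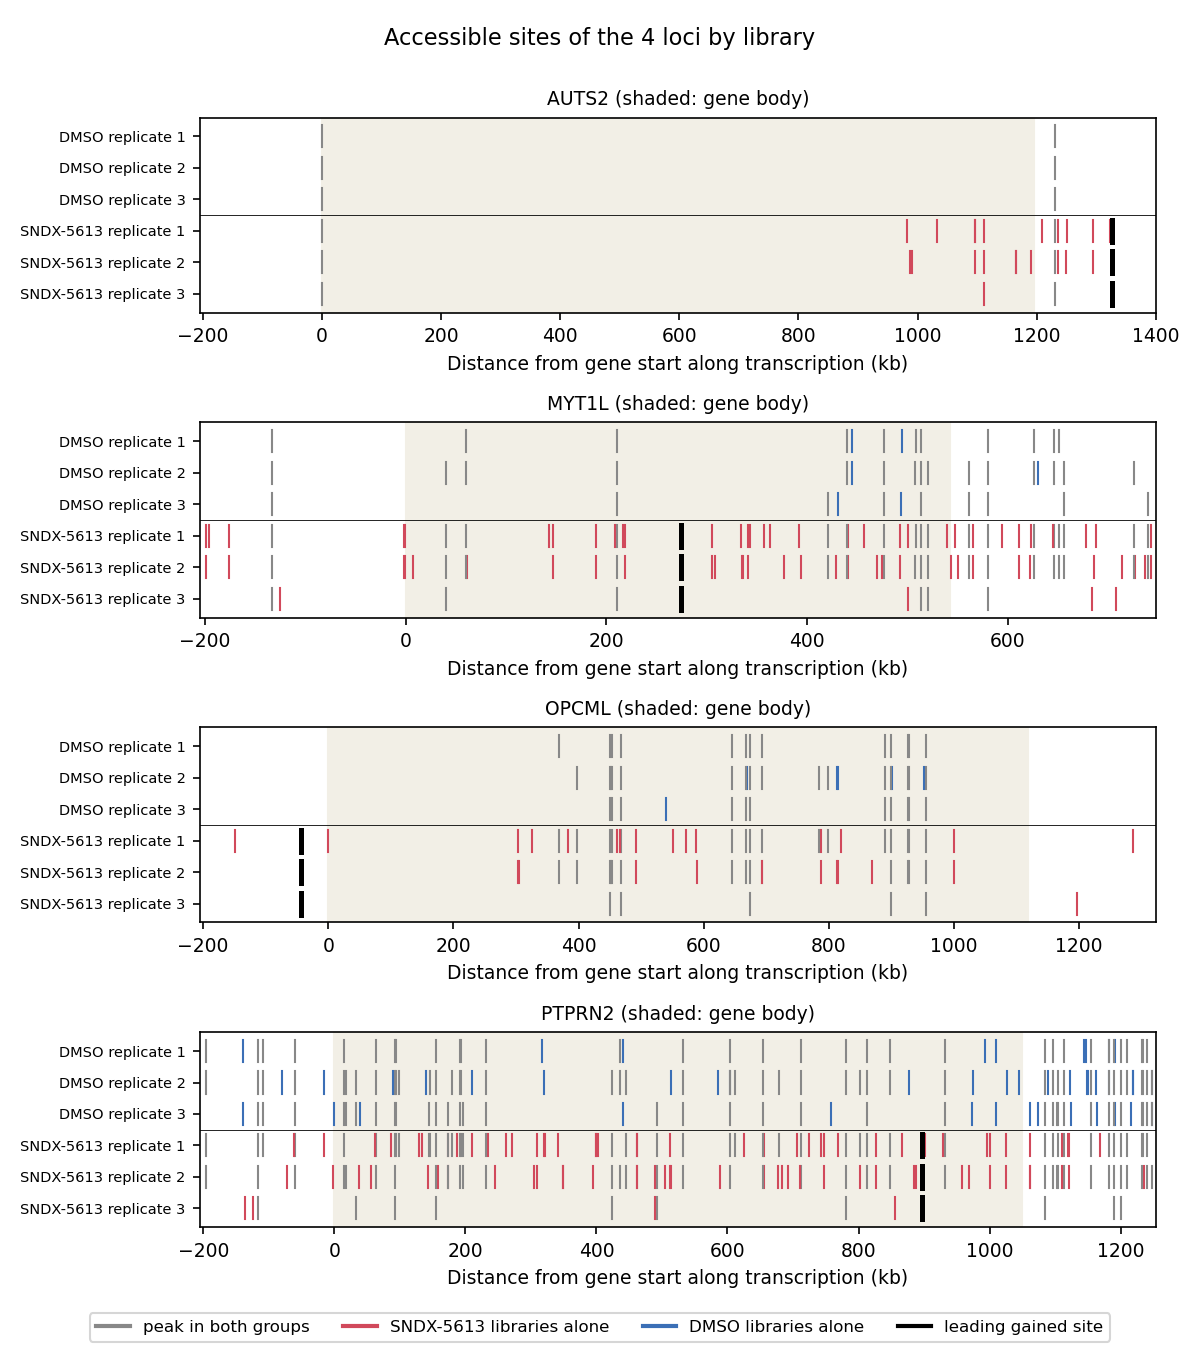
Position of every site of the 4 loci by library. The x axis is the distance in kb from the gene start along transcription, each row is a library, and a tick is a site with a peak there, grey for peaks in both groups, red for SNDX-5613 libraries alone, blue for DMSO libraries alone and black for the leading site. The AUTS2 ticks in SNDX-5613 libraries alone fill the 3′ end and the flank beyond it, whereas those of MYT1L and PTPRN2 run along the whole locus.

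The gain was clustered at AUTS2 and spread at MYT1L and PTPRN2, as the map by library shows. At AUTS2 all 19 SNDX-5613-alone sites fell in 5 of 16 bins of 100 kb, with the 18 besides the leading site between 982 and 1325 kb from the gene start. No library had a peak between the site at the gene start and 982 kb. The AUTS2 leading site had 3 other SNDX-5613-alone sites and 0 sites with a DMSO peak within 50 kb, the nearest 2.24 kb away, where SNDX-5613 replicate 1 alone had a pileup of 7.

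At MYT1L, SNDX-5613-alone sites occurred in 10 of 10 bins, 29 in the gene body, 18 in the downstream flank and 7 in the upstream flank. DMSO-alone sites there numbered 4, 1 and 0. The MYT1L leading site itself had no other site within 10 kb, and 22 SNDX-5613-alone against 5 other sites within 200 kb.

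OPCML came closest to an isolated gain. Its leading site had 1 other site within 50 kb, at the gene start, and 2 within 200 kb, while the nearest site shared by all 6 libraries lay 493 kb away. The remaining SNDX-5613-alone sites were scattered over 12 of 16 bins, 19 of them in the gene body, where 6 DMSO-alone sites also lay.

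At PTPRN2, SNDX-5613-alone sites occupied 14 of 15 bins and DMSO-alone sites 13. The gene body held 58 SNDX-5613-alone and 18 DMSO-alone sites, but the downstream flank toward DNAJB6 held 7 and 18. The excess thus lay in the gene body and turned round beyond its end.

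Because lists of unequal length find unequal numbers of sites, an equal number of regions, the 40568 strongest of each library, was compared next, with the leading sites left out. The 4 loci then held 15, 13 and 15 regions in DMSO libraries and 27, 26 and 33 in SNDX-5613 libraries, 14.3 ± 1.15 against 28.7 ± 3.79 (mean ± SD, n = 3 each). The groups did not overlap. The shallow library had the highest value, but there the 40568 regions are its whole list, down to a pileup of 3. An equal number of regions is thus not an equal strength. With 3 libraries a group an exact permutation test cannot go below p = 0.1, and no p is given for sums over loci chosen from this contrast.

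MYT1L carried the largest part, with 2, 2 and 3 regions in DMSO and 8, 8 and 10 in SNDX-5613 libraries. PTPRN2 had 7, 6 and 7 against 11, 12 and 14, and OPCML 5, 5 and 4 against 7, 6 and 6. At AUTS2 the values were 1, 0 and 1 against 1, 0 and 3, so the groups overlapped, and without SNDX-5613 replicate 3 the difference was -0.17 regions. The AUTS2 sites outside the leading one were thus mostly below the strength at which all lists can be compared. Without that library, at the 88026 strongest regions of each of the other 5, the 4 loci held 70, 66 and 64 regions in DMSO and 117 and 128 in SNDX-5613 libraries.

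Over all called regions, the 4 loci had 69, 106 and 74 sites with a peak in DMSO libraries and 183, 165 and 37 in SNDX-5613 libraries, so the groups overlapped through the shallow library. Per 10000 called regions of a library, leading sites included, the locus regions numbered 7.95, 9.59 and 7.68 against 17.05, 17.03 and 9.12, with the shallow library inside the DMSO range. On this scale the groups did not overlap at AUTS2, with 0.227, 0.176 and 0.207 against 1.30, 1.34 and 0.986, or at MYT1L, with 1.48, 1.495 and 1.14 against 4.75, 5.16 and 2.71. They overlapped at OPCML and PTPRN2. The share of other long genes whose groups were apart on this scale was not counted. The leading sites that chose the genes add to these values.

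**Figure D2:**
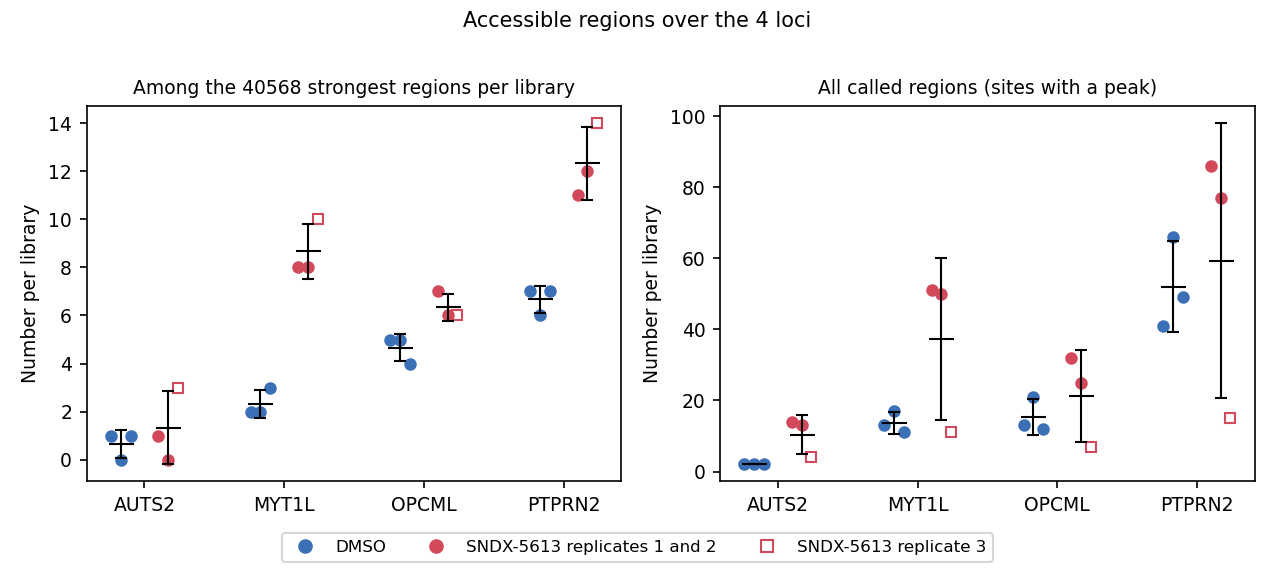
Accessible regions of each locus in each library. The y axes count regions among the 40568 strongest of a library, leading sites left out (left), and sites with a peak over all called regions (right), with points for libraries, an open square for SNDX-5613 replicate 3, and the mean ± SD in black. At the equal number the groups are apart at MYT1L, OPCML and PTPRN2 and overlap at AUTS2.

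Among the 275 protein-coding genes at least as long as MYT1L (543 kb), the equal-number count, leading sites included, was higher in every SNDX-5613 than in every DMSO library for 27 (9.82%) and lower for 18 (6.55%). MYT1L, OPCML and PTPRN2 were among the 27 and AUTS2 was not. More SNDX-5613-alone than DMSO-alone sites were found at 44.7% of these genes, the 4 members included. By SNDX-5613-alone share, AUTS2 ranked 4 of 275, MYT1L 14, OPCML 26 and PTPRN2 32. The median of the other 271 genes was 19.0%. A gained site was present at 22 of those 271 and a lost site at 123.

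**Figure D3:**
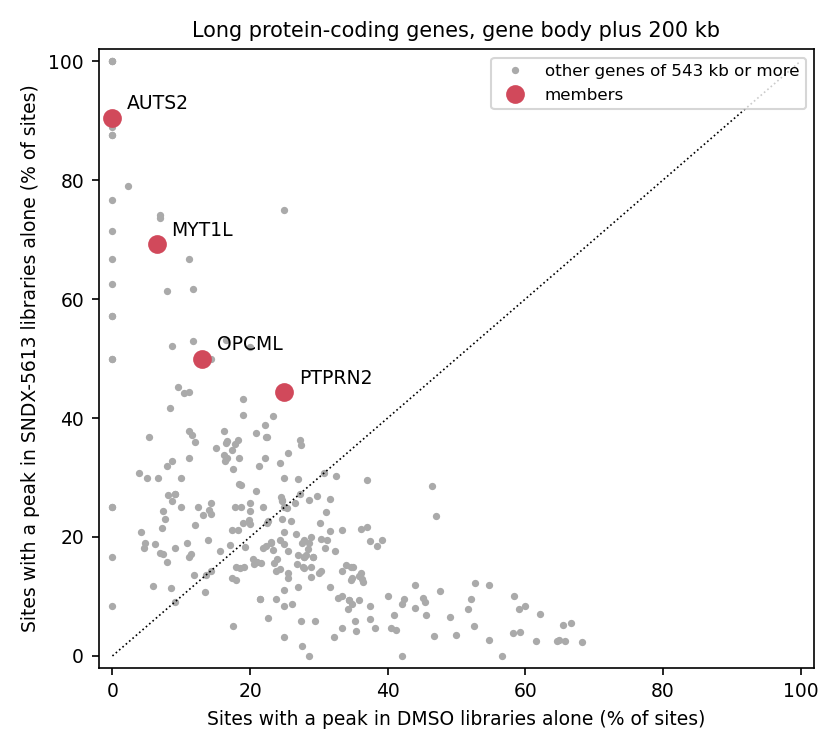
Share of sites in SNDX-5613 libraries alone (y axis, %) against the share in DMSO libraries alone (x axis, %) for 275 long protein-coding genes, each with 200 kb on either side. A point is a gene, members are red and labelled, and the dotted line marks equal shares. The 4 members lie above the line at 44.4% to 90.5%, among other genes with similar shares.

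Sites open in all 6 libraries allow a comparison that presence does not. Over the 4 loci there were 17 such sites, ranked among the 33405 shared sites of the whole series within each library. At 8 of the 17 every SNDX-5613 rank was above every DMSO rank, against 8.54% of all shared sites, and at 0 every rank was below, against 8.08%. With only peaks at a -log10 q of at least 3, 2 of 12 shared sites were higher, against 8.42%, and 1 was lower, against 7.66%, so that with stronger peaks alone the counts were nearer to the share over all sites. The 8 were 1 at AUTS2, 2 at MYT1L, 1 at OPCML and 4 at PTPRN2. Some, as at the AUTS2 start, were among the weakest shared sites in DMSO libraries and had little room to rank lower. The shares over all shared sites were not matched for strength. The median difference of group means was 6.64 percentile points over the 17 sites and -0.09 over all shared sites, with 16 of 17 above 0. Without SNDX-5613 replicate 3, 40 sites were shared and 17 were higher and 4 lower without overlap, against 14.3% and 14.4% of all sites shared by those 5 libraries.

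One of the 8 lay in an exon at the AUTS2 gene start (chr7:69598090-69598845). Its pileups were 6, 13 and 9 in DMSO and 29, 27 and 8 in SNDX-5613 libraries. Its rank percentiles among shared sites were 0.141, 2.05 and 0.403 against 12.6, 10.4 and 36.8, or 0.866 ± 1.04 against 19.96 ± 14.7 (mean ± SD, n = 3 each). The groups did not overlap, and in every DMSO library the AUTS2 start was among the weakest shared sites. The other shared AUTS2 site, 1231 kb from the start and 96.2 kb from the leading site, had overlapping ranks, with pileups of 21, 23 and 29 against 26, 23 and 6.

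In MYT1L the shared site 211 kb into the gene (chr2:2120750-2121244) had pileups of 13, 25 and 19 in DMSO and 36, 43 and 6 in SNDX-5613 libraries. The site at -133 kb, upstream of the gene (chr2:2464120-2464816), had 7, 13 and 12 against 29, 31 and 6. The ranks of both did not overlap between groups, and the first is the nearest shared neighbour of the leading site, 63.6 kb away. The strongest MYT1L site, 514 kb from the start and the next shared neighbour on the other side, had shared ranks of 22.5, 23.3 and 45.0 against 36.6, 37.3 and 36.8, which overlapped.

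In OPCML the shared intronic site 449 kb from the start (chr11:133082844-133083286), the nearest shared neighbour of the leading site, had pileups of 9, 13 and 11 against 38, 44 and 5. Its shared ranks were 0.290, 0.509 and 0.335 in DMSO and 16.6, 22.7 and 5.67 in SNDX-5613 libraries. The strongest OPCML site, 900 kb from the start, had pileups of 60, 61 and 77 against 61, 73 and 14 and overlapping ranks. The strong and the weak site of this gene thus stood differently between the groups, a difference that was not tested.

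In PTPRN2 the site 156 kb from the start had the widest shift of the 17, with shared ranks of 2.58, 4.75 and 6.26 against 23.8, 20.2 and 39.0. The site at 91.8 kb had 11.6, 9.40 and 11.8 against 26.1, 17.1 and 16.8. The weakest, 188 kb from the leading site, was at the start of the noncoding gene ENSG00000223872 beyond the end of PTPRN2, with pileups of 7, 6 and 7 against 19, 13 and 3. The fourth, at the promoter of NCAPG2, a condensin subunit needed in mitosis, was the strongest site of the window, with pileups of 163, 242 and 221 against 233, 211 and 39.

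**Figure D4:**
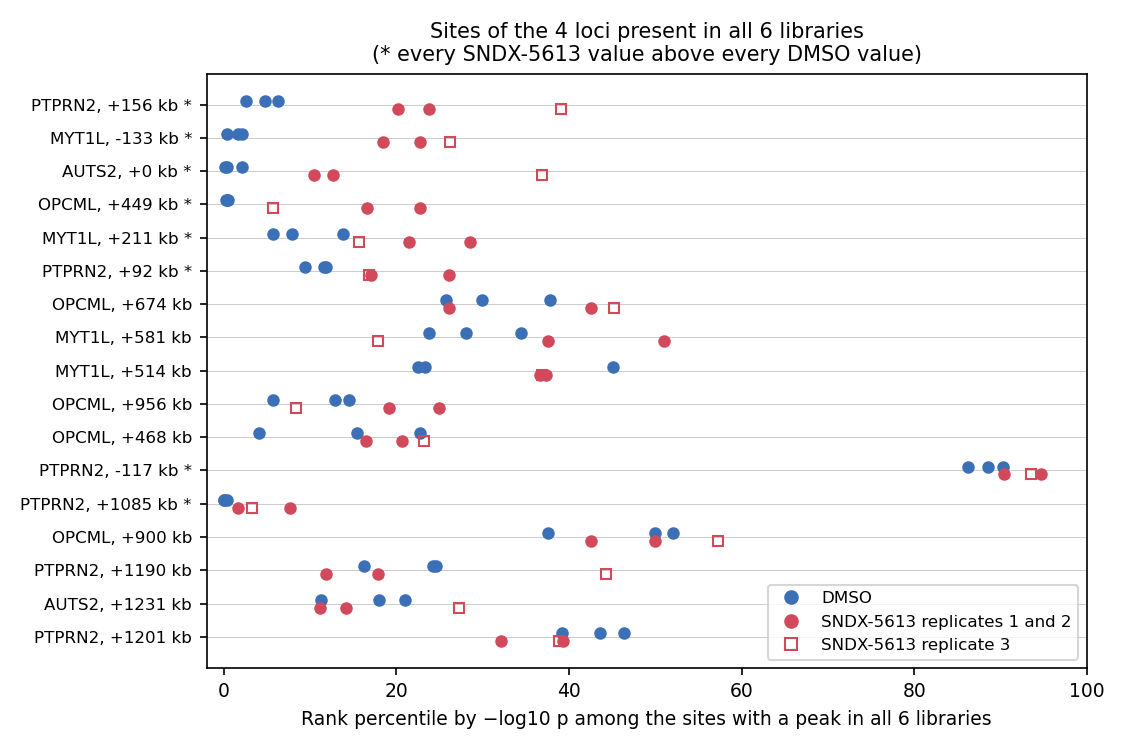
The 17 sites of the 4 loci with a peak in all 6 libraries, sorted by the difference of group means. The x axis is the rank percentile by -log10 p among all 33405 shared sites, points are libraries (blue DMSO, red SNDX-5613, open square SNDX-5613 replicate 3), and row names give the distance from the gene start in kb. A star marks the 8 sites at which the groups do not overlap, each with SNDX-5613 on the right.

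The read level around the shared sites differed as well. The local background that each p-value was computed against, divided by the library's genome-wide background, had a median over the 17 sites of 1.35, 1.40 and 1.21 in DMSO and 1.89, 1.89 and 1.82 in SNDX-5613 libraries. Over an even sample of 1637 to 1670 shared sites of the whole series the medians were 3.55, 3.40 and 3.41 against 3.33, 3.30 and 3.35. The groups were apart in both, in opposite directions. At the AUTS2 start the local background was 0.997, 1.31 and 1.45 in DMSO libraries, equal to their genome-wide values, and 2.48, 2.62 and 0.384 in SNDX-5613 libraries, above theirs of 1.26, 1.51 and 0.211. Fragments of the peak itself add to this background, and its part in the ranks was not tested.

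At their outermost annotated starts the other members were seldom called. Counted at any of its starts, as promoters of the comparison genes were, MYT1L had a promoter peak in every library but SNDX-5613 replicate 3. OPCML had one in SNDX-5613 replicates 1 and 2, and PTPRN2 in DMSO replicate 3. At MYT1L a site 461 bp from the outermost start had pileups of 12 and 10 in SNDX-5613 replicates 1 and 2 and no peak in other libraries. A second site 1.7 kb upstream of MYT1L, 91 bp from the start of the noncoding gene ENSG00000289941, had 15 and 24 in the same libraries. At the OPCML start SNDX-5613 replicate 1 alone had a peak, with a pileup of 9. At the PTPRN2 start DMSO replicate 3 alone had a peak, with a pileup of 10.

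Few sites lay at starts inside the genes. AUTS2 had 4 such sites within 1 kb of an internal start, all in SNDX-5613 libraries alone, with pileups of 7 to 11. OPCML had 2, each in 1 SNDX-5613 library. MYT1L had 7, of which 5 were in SNDX-5613 libraries alone and 2 in both groups. For PTPRN2 no such site was listed, and DMSO replicate 3 alone had a peak at any of its starts. Over all sites of AUTS2, OPCML and MYT1L the SNDX-5613-alone shares were 90.5%, 50% and 69.2%, so these few sites do not set starts apart. The 167 SNDX-5613-alone sites comprised 119 intronic, 25 intergenic, 19 promoter and 4 exonic sites, the promoters of noncoding genes included.

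Relatives of the members and other long neuronal genes were counted in the same way. The 9 family genes FBRSL1 and FBRS (AUTS2), MYT1 and ST18 (MYT1L), NTM, LSAMP, NEGR1 and IGLON5 (OPCML) and PTPRN (PTPRN2) together held 521 sites, of which 0 were gained and 15 (2.88%) lost. Over all sites 0.147% were gained and 1.18% lost. Sites in SNDX-5613 libraries alone numbered 104 (19.96%), next to the 19.7% of all sites, and those in DMSO libraries alone 154 (29.6%), against 23.8%. NTM, an adhesion molecule whose locus overlaps that of OPCML, had 23 against 0. NEGR1, of the same IgLON family, had 2 against 53 and 9 of the lost sites.

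A list of 22 long neuronal genes, 3 of them (NTM, LSAMP and NEGR1) also in the family list, held 1103 sites. Of these 277 (25.1%) were in SNDX-5613 libraries alone, against 19.7% of all sites, and 341 (30.9%) in DMSO libraries alone, against 23.8%, with more of the first kind at 12 of the 22 genes. The list held 4 gained sites (0.363%) at 3 genes and 21 lost sites (1.90%) at 8 genes, against 0.147% and 1.18% of all sites. RBFOX1, a splicing factor, had 38 against 9 with 2 gained sites, and DPP6, a potassium channel subunit, had 19 against 4. ERBB4, a neuregulin receptor, had 7 against 46 and LRP1B, a lipoprotein receptor relative, 7 against 52. Sites with a peak in both deeper SNDX-5613 libraries and no DMSO library made up 42 of the 1103 sites (3.81%), against 2.39% of all sites. No test of the list against the members was made.

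The long genes whose equal-number counts were most like the sum over the members, by Pearson correlation over the 6 libraries, were SDK1 (r = 0.986), KHDRBS2 (0.963) and TMEM132D (0.958). The libraries differ in depth and all genes share them, so these values describe likeness alone. KHDRBS2 had 4 sites, with 0, 0 and 0 regions in DMSO and 2, 1 and 2 in SNDX-5613 libraries, so its value rests on few regions. SDK1, a synaptic adhesion molecule, had 1, 0 and 1 regions in DMSO and 7, 6 and 8 in SNDX-5613 libraries. It had 64 SNDX-5613-alone against 6 DMSO-alone sites, and its promoter was called in every library but SNDX-5613 replicate 3.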

How the data were processed

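ATAC-seq peak lists of 6 HLF libraries were analysed, 3 treated with DMSO and 3 with SNDX-5613, grouped and numbered by the labels. The submitters' processing notes name Trim Galore 0.6.7, Bowtie2 2.3.4.1, Picard 2.20.0, SAMtools, deepTools 3.5.4 and MACS2, with hg38. Filtering of reads by mapping quality and any shift for the Tn5 cut were not given in the sources used here. For each summit the deposited lists hold a fold of pileup over local background, a -log10 p and a -log10 q, all computed by the authors. The deposited score was not used. The deposited consensus sets, 1 per group, hold regions pooled over replicates with a -log10 p, and only their regions were used.

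Summits of the same region were merged with the strongest kept, and regions sharing 1 bp or more across libraries were joined as sites. Regions were annotated with GENCODE release 44, with promoters within 1 kb of a start, on chromosomes 1 to 22, X and Y. No summit lay past a chromosome end. Pileup and background were solved from fold and p as MACS2 defines them, for 100% of the summits tried in each library, against 0.126% to 0.581% after p was shuffled. Intervals for depth could not be given because read numbers were not analysed here, and counts of reads were not tested. Groups were compared by values per library, mean ± SD and overlap of the groups, with the share over all sites as background.

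Members and gene lists were chosen with earlier results of these data known. Named sites were the gained and lost sites of the loci, sites within 1 kb of a member's start, the nearest sites shared by all 6 libraries, and the strongest site of each locus, and other sites were named after their values were seen. The alternatives were another ranking, stricter peaks, 50% cover, equal numbers of regions, other flanks, fixed windows, a replicate block and leaving out each library. Python 3.11.15, pandas 2.3.3, NumPy 2.4.6, SciPy 1.17.1 and pyfaidx 0.9.0.4 were used, and the steps were tested on simulated data.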

Additional observations from a re-analysis of the deposited data

How the results depend on the processing

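The shallow SNDX-5613 replicate 3 entered the counts of gained and shared sites, since a site needs a peak there to count as either. The 4 gained sites of the loci became 10 of 53 at the equal number of top regions (0.806% of all sites there), 2 in the gene bodies alone, and 4 to 38 when 1 library was left out, with 7 without DMSO replicate 2 and 38 without SNDX-5613 replicate 3 (2.43% of all sites). A cover of 50% gave 3, with peaks in 1, 2, 2 and 3 SNDX-5613 libraries at the leading sites of AUTS2, MYT1L, OPCML and PTPRN2. At the equal number these were in 2, 2, 3 and 1. No setting put a DMSO peak on them, but settings that only remove regions or libraries could not have done so. The 0 lost sites became 0 to 4 when 1 library was left out, with 4 without DMSO replicate 2 (1.92% of all sites), 2 without DMSO replicate 3 (2.59%) and 4 without SNDX-5613 replicate 1 (3.60%). The 8 shared sites ranked higher became 2 of 12 at a -log10 q of at least 3 (8.42% of all shared sites), 5 of 10 in the gene bodies alone, and 8 to 17 without 1 library, the 17 without SNDX-5613 replicate 3. The 0 ranked lower became 1 at that -log10 q (7.66%) and 0 to 4 without 1 library. The difference of 14.3 regions outside the leading sites kept its direction in all 12 alternatives, at 12.2 to 15.7 with 1 library left out, 5.40 per 10000 called regions and 55.8 at the larger equal number, which was chosen after seeing the data. At AUTS2 alone it was -0.17 to 1.33 with 1 library left out, the reversal being without SNDX-5613 replicate 3. The causes were not tested beyond the smaller number of libraries, sites or regions that each setting uses.

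Replicate numbers recur in both groups. The study's methods state that a replicate was 1 dish divided between the groups, in general and not for these libraries by number, and the labels give no shared source. Deviations from the group means over 33405 shared sites correlated at 0.03, 5.9e-05 and 0.02 for libraries of the same number, all near 0, and the fit without the block was kept. With the replicate block the difference was again 14.3 regions. Equal group sizes fix this value, so its direction among the 12 alternatives was set in advance.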
